A study of Mus musculus with 3 samples.

Results

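CpG methylation was examined at 10 genes of the PIWI-interacting RNA (piRNA) pathway, *Piwil2*, *Piwil4*, *Tdrd1*, *Tdrd9*, *Mov10l1*, *Mael*, *Asz1*, *Tdrkh*, *Ddx4* and *Pld6*, out of 39087 RefSeq genes on the assembled mouse chromosomes, of which 21774 were protein-coding. The genes were chosen by name and not by their methylation. The data were whole-genome bisulfite calls from spermatogonia that were sorted at postnatal day 7 with an anti-EpCAM antibody. They comprised 1 file each, taken as 1 library, from WT, *Pld6* KO and *Dnmt3l* KO mice, all labelled as strain C57BL6/J. *Pld6* encodes a mitochondrial nuclease of piRNA production, and *Dnmt3l* encodes a cofactor of the *de novo* DNA methyltransferases. Both mutations are constitutive, both lines had been backcrossed to C57BL/6J, and the study counted *Pld6* and *Dnmt3l* heterozygotes among its WT animals. The study's methods name biological replicates of every genotype, whereas the file analysed for each genotype is named as replicate 1, and whether it holds 1 replicate or a pool is not given in the sources used here. With 1 file per genotype an effect of genotype and an effect of the library cannot be told apart, and the spread between replicates is not known.

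piRNAs are small RNAs that guide PIWI proteins to transcripts of retrotransposons. In fetal prospermatogonia they are made from long precursors on the mitochondrial surface and in germ granules, amplified by reciprocal cleavage, and carried into the nucleus, where they direct *de novo* methylation of young retrotransposon promoters. The genes that encode this machinery are expressed mainly in the germline, and several of them have CpG-rich promoters that are methylated in somatic cells. The comparison asks how these genes are themselves methylated in male germ cells, and how far that depends on the piRNA factor PLD6 or on DNMT3L.

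A methylation level is given as a fraction, namely the share of methylated calls among those at the CpG sites of a region. The promoter core was the sequence within 500 bp of the transcription start, the shores lay from 0.5 to 3 kb on either side, and the gene body ran from 3 kb after the start to the gene end. The start was that of the most upstream curated RefSeq transcript in GRCm38.p6, the assembly named mm10. RefSeq promoter windows were found for 9 of the 10 genes, and *Piwil2* had no entry. The 250 bases before the start are given for 4 genes, because they display the CpG-rich sequence around which the low methylation was measured. Every CG is in capitals, and each sequence reads 5′ to 3′ on the strand of its gene.

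*Mov10l1*, chr15:88982744-88982993, plus strand: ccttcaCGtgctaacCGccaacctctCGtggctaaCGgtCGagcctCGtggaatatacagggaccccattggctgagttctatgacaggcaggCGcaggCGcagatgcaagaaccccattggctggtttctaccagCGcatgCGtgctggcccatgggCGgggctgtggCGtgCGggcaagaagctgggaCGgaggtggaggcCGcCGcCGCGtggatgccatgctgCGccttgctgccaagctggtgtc
*Tdrd9*, chr12:111971309-111971558, plus strand: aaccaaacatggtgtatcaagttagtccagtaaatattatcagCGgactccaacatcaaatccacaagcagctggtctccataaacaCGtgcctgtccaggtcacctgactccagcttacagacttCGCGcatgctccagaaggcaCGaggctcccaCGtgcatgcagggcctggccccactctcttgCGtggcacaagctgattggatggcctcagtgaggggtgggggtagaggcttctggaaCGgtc
*Asz1*, chr6:18109062-18109311, minus strand: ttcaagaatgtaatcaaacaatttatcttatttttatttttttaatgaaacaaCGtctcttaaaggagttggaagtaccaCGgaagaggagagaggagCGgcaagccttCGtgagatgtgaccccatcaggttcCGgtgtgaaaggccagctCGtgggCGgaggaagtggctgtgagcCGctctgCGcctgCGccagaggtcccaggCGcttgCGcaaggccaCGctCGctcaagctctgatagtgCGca
*Ddx4*, chr13:112652311-112652560, minus strand: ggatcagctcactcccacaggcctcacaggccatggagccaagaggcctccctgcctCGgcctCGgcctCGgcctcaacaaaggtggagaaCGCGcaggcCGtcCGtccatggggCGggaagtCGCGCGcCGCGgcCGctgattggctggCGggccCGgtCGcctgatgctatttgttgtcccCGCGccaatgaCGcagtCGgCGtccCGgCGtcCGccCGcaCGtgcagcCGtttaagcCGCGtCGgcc

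The *Mov10l1* stretch has 19 CpG sites and held no methylated call in any library (37 calls for WT, 44 for *Pld6* KO, 34 for *Dnmt3l* KO). In the *Tdrd9* stretch, with 9 CpG sites, 0 of 32 calls were methylated in WT, 3 of 44 in *Pld6* KO and 0 of 29 in *Dnmt3l* KO. The *Asz1* stretch, with 15 sites, differed from these, with 5 of 22 calls methylated in WT, 12 of 48 in *Pld6* KO and 0 of 30 in *Dnmt3l* KO. The *Ddx4* stretch, with 31 sites, had 0 of 78 methylated calls in WT, 7 of 92 in *Pld6* KO and 0 of 46 in *Dnmt3l* KO. The letters CACGTG, which hold a CpG and read the same on both strands, were found in the 300-base promoter windows (250 bases before to 50 after the start) of 6 of the 9 genes, namely *Tdrd1*, *Tdrd9*, *Mov10l1*, *Mael*, *Ddx4* and *Pld6*. *Tdrd9* held them 2 times. The same letters occur in 7.15% of all 32851 RefSeq promoter windows of this assembly, and in 10.9% of the 14281 windows with at least 10 CpG sites. At the CpG inside these letters, summed over the 5 of these genes other than *Pld6*, 0 of 14 calls were methylated in WT, 1 of 31 in *Pld6* KO and 0 of 14 in *Dnmt3l* KO, the last from 4 genes since *Tdrd1* had no call there. The letters GGCGGGA, searched on both strands, were found in 2 of the 9 windows, those of *Mael* and *Ddx4*, against 11.3% of all windows and 23.4% of those with at least 10 CpG sites, which all 9 have. TGACGTCA was in none of the 9, against 1.79% and 3.37%.

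WT was covered by 43757722 calls with an overall CpG level of 0.703, *Pld6* KO by 64076569 with 0.722, and *Dnmt3l* KO by 19289688 with 0.301. Both targeted genes bore out their labels. In *Pld6* KO, 66 successive CpG sites over 1440 bp around the *Pld6* start had no call, where WT had 163 calls and *Dnmt3l* KO 65. In *Dnmt3l* KO, 53 successive sites over 4075 bp of the *Dnmt3l* region had none, where WT had 88 and *Pld6* KO 171. Imprinted regions were used to gauge somatic cells, in which maternally methylated regions stand near an equal mix. The starts of 9 of 10 listed maternally methylated genes had enough calls, and their levels had a median of 0.0169 (0.0104 to 0.0780) in WT, 0.0699 (0.00664 to 0.148) in *Pld6* KO and 0 (0 to 0.0556) in *Dnmt3l* KO. The paternally methylated stretch 2 to 4 kb upstream of *H19* was at 0.859, 0.884 and 0.148.

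The promoter cores of the pathway were at a low level in all 3 genotypes, with 1 exception at the upstream start of *Piwil2*. Among the genes for the PIWI proteins, *Piwil4*, which encodes the nuclear MIWI2, had a core level of 0.158 in WT (3 of 19 calls; 95% interval 0.0552 to 0.376), 0.141 in *Pld6* KO (12 of 85) and 0 in *Dnmt3l* KO (0 of 14, which allows up to 0.215). The 3 intervals overlapped. *Piwil2*, which encodes the cytoplasmic slicer MILI, has 2 curated starts 7790 bp apart on chromosome 14. Its upstream start, at position 70436898 with 11 CpG sites in the core, was methylated at 0.964 in WT, 0.939 in *Pld6* KO, and 0.684 for *Dnmt3l* KO, from 28, 33 and 19 calls. Its downstream start, at position 70429108 with 36 CpG sites, was at 0.115 in WT (9 of 78 calls), 0.187 in *Pld6* KO (17 of 91) and 0 in *Dnmt3l* KO (0 of 40). The CpG-rich start of *Piwil2* thus had the low level of the other cores, and the CpG-poor one did not.

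The Tudor-domain proteins bind methylated arginines of PIWI proteins and assemble them in germ granules. *Tdrd1*, whose product scaffolds MILI, had a core level of 0.104 in WT (19 of 182 calls), 0.0447 in *Pld6* KO (8 of 179) and 0 in *Dnmt3l* KO (0 of 54, which allows up to 0.0664). *Tdrd9*, whose product is a helicase that acts with MIWI2, was at 0.0789 (9 of 114), 0.0638 (9 of 141) and 0 (0 of 42, up to 0.0838) in the same order. *Tdrkh*, whose product anchors the trimming of piRNA ends at mitochondria, was the lowest, at 0.0119 in WT (1 of 84) and 0.0201 in *Pld6* KO (4 of 199), and its 7 calls in *Dnmt3l* KO were all unmethylated.

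The factors of precursor processing and piRNA amplification varied more among themselves. *Asz1*, which encodes a mitochondrial surface protein, had the highest level of the CpG-rich cores in WT, 0.240 (23 of 96 calls; 0.165 to 0.334), with 0.185 in *Pld6* KO (23 of 124) and 0 in *Dnmt3l* KO (0 of 47, up to 0.0756). *Mov10l1*, the helicase that hands precursors to the nuclease, was at 0.0300 in WT (3 of 100), 0.0828 in *Pld6* KO (12 of 145) and 0 in *Dnmt3l* KO (0 of 66, up to 0.0550). *Mael*, a component of the MIWI2 granules, was at 0.0588 (8 of 136), 0.157 (35 of 223) and 0.0135 (1 of 74). *Ddx4*, the germ cell helicase VASA, has the most CpG sites in its core, 77, and was at 0.0508 (9 of 177), 0.0991 (21 of 212) and 0.0141 (1 of 71). The intervals of WT and *Pld6* KO did not overlap for *Mael* (0.0301 to 0.112 against 0.115 to 0.210) and overlapped for the other genes. No CpG site of the *Pld6* core was listed in all 3 libraries, since the knockout lacks that sequence, and no level is given for it.

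**Figure D1:**
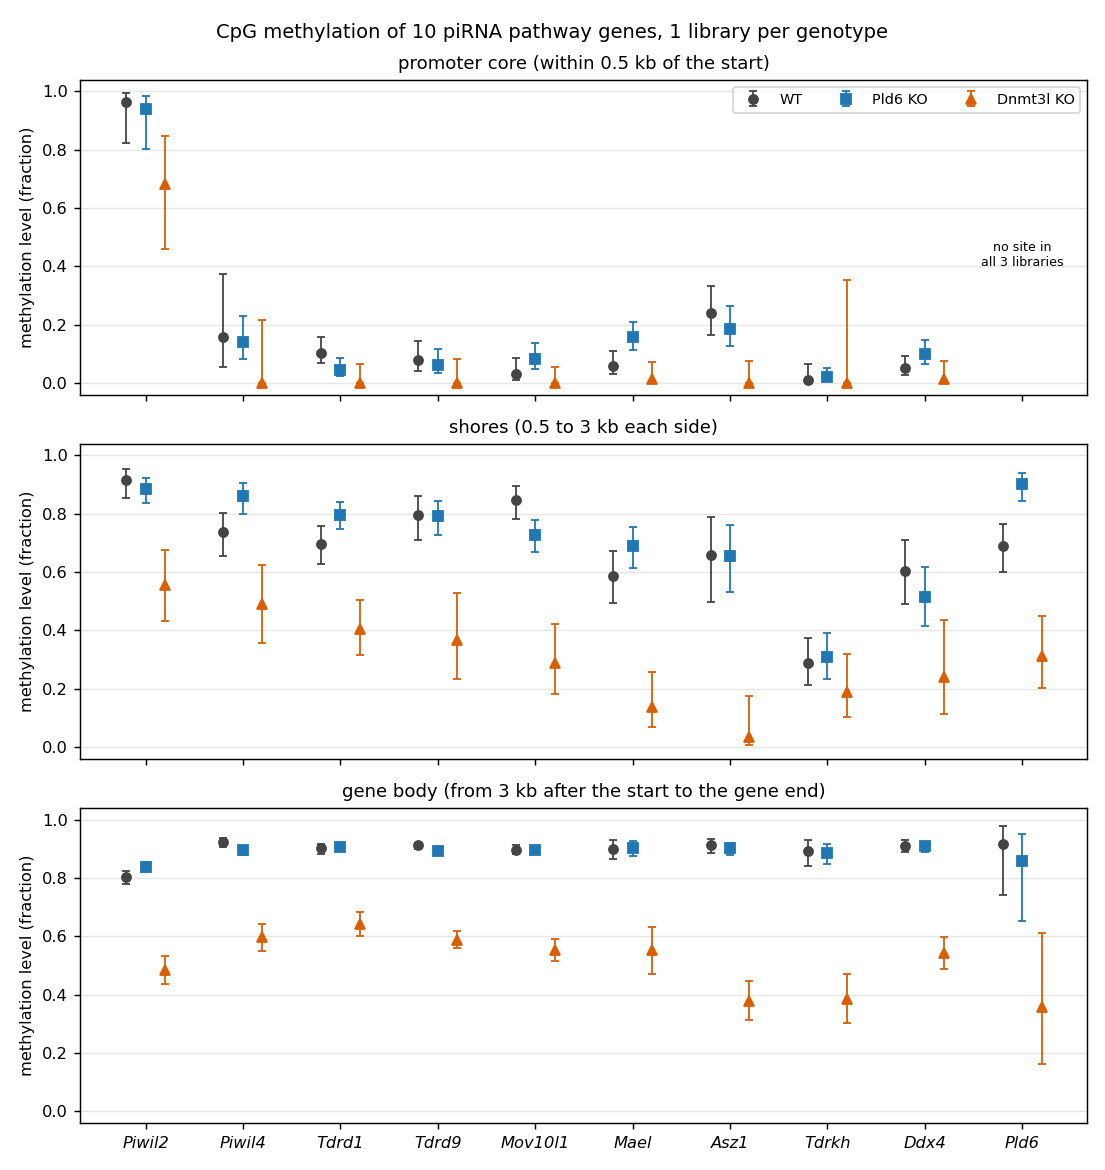
Methylation level (fraction, 0 to 1) of the promoter core, the shores and the gene body of each of the 10 genes; points are the 3 libraries and bars are 95% Wilson intervals, which cover counting error only. Apart from the upstream start of *Piwil2* all measured cores lie at or below 0.240, whereas the bodies lie between 0.803 and 0.922 in WT and between 0.357 and 0.644 in *Dnmt3l* KO.

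None of the cores was called lower in a knockout, a call being a level at least 0.3 below WT where each of the libraries had at least 10 calls. The count was 0 of 9 in *Pld6* KO, where 0.793% of all genes were called, and 0 of 8 in *Dnmt3l* KO, where 23.3% were called. Most of these cores had a WT level under 0.3, from which such a decrease is not possible. Taken as WT minus *Pld6* KO, the differences ranged from 0.0597 at *Tdrd1* (95% interval 0.00478 to 0.117) to -0.0981 at *Mael* (-0.159 to -0.0306), a negative value meaning a higher level in the knockout. By a two-sided Fisher's exact test on the calls, adjusted over all genes, none of the 9 cores differed between the WT and *Pld6* KO libraries (adjusted p = 0.269 for *Mael* and 0.664 for *Tdrd1*). Between the WT and *Dnmt3l* KO libraries the same exact test called 2 of 8 cores lower, *Asz1* (adjusted p = 0.00055) and *Tdrd1* (adjusted p = 0.0429), beside 21.1% of all genes. At *Piwil2* the decrease of 0.280 (0.0649 to 0.506) had an adjusted p of 0.0593 in that exact test. Pooled over the 8 genes other than *Piwil2* and *Pld6*, 75 of 908 core calls were methylated in WT (0.0826; 0.0664 to 0.102), 124 of 1308 in *Pld6* KO (0.0948; 0.0801 to 0.112) and 2 of 375 in *Dnmt3l* KO (0.00533; 0.00146 to 0.0192). All 8 had at least 1 methylated call in WT and in *Pld6* KO, and 6 of the 8 had none in *Dnmt3l* KO.

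The low levels that remained in WT and *Pld6* KO were set beside other genes. The median over the 9 measured cores was 0.0789 in WT, 0.0991 in *Pld6* KO, and 0 for *Dnmt3l* KO (8 cores). All genes had medians of 0.0541, 0.116 and 0, and protein-coding genes 0.00870, 0.0120 and 0. The median of the maternally methylated imprinted regions, given above, ranked the libraries in the same order as the pooled cores. Single regions did not all follow this order. From WT to *Pld6* KO the level fell at *Kcnq1ot1*, *Peg3* and *Grb10* and rose at the other measured regions. At *Peg10* and *Zrsr1* the *Dnmt3l* KO level was above that of WT. Single cores also went in both directions between WT and *Pld6* KO, and the intervals of their pooled cores overlapped. The part of somatic cells, of incomplete conversion and of library depth in these low levels was not tested.

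The shores carried intermediate to high methylation in WT and *Pld6* KO and less in *Dnmt3l* KO. The WT levels ran from 0.288 at *Tdrkh* to 0.916 at *Piwil2*, with a median of 0.694, which compares with 0.759 in *Pld6* KO and 0.301 in *Dnmt3l* KO. All genes had medians of 0.636, 0.670 and 0.214. In *Dnmt3l* KO, 7 of 10 shores were called at least 0.3 lower, against 56.8% of all genes, and 9 of 10 were lower by Fisher's exact test, against 84.8%. A share of this size is near that of all genes. *Asz1* had the largest decrease, from 0.658 in WT (25 of 38 calls) and 0.656 in *Pld6* KO (40 of 61) to 0.0357 in *Dnmt3l* KO (1 of 28), a difference of 0.622 (0.409 to 0.755). *Mov10l1* fell from 0.849 in WT (129 of 152) to 0.288 in *Dnmt3l* KO (15 of 52), with 0.727 in *Pld6* KO (186 of 256). *Mael* was at 0.586 (65 of 111), 0.688 (117 of 170) and 0.137 (7 of 51) in WT, *Pld6* KO and *Dnmt3l* KO. In these 3 genes, as also in *Piwil2*, *Piwil4*, *Tdrd1*, *Tdrd9* and *Pld6*, the *Dnmt3l* KO interval lay below both others.

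*Tdrd9* was at 0.796, 0.791 and 0.368 in its shores, *Ddx4* at 0.606, 0.516 and 0.240, and *Piwil2* at 0.916, 0.887 and 0.557, again in the order WT, *Pld6* KO and *Dnmt3l* KO. The calls at *Piwil2* and *Ddx4* depended on the start that was used, since the shore difference in *Dnmt3l* KO was 0.0926 around the *Piwil2* start with the most CpG sites and 0.112 around the annotated gene start of *Ddx4*. *Piwil4*, at 0.737, 0.861 and 0.490, and *Tdrd1*, at 0.698, 0.797 and 0.406, lost 0.247 and 0.292 in *Dnmt3l* KO and so stayed just short of the size used for calling. *Tdrkh* was the exception, with 0.288 in WT (34 of 118), 0.308 in *Pld6* KO (40 of 130) and 0.188 in *Dnmt3l* KO (9 of 48), a difference of 0.101 (-0.0506 to 0.223; adjusted p = 0.259 in Fisher's exact test). Its upstream shore was low already in WT, at 0.172 (16 of 93), and the start of another gene, *1700040D17Rik*, lies 289 bp from that of *Tdrkh* on the opposite strand. Its downstream shore, by contrast, was at 0.720 in WT (18 of 25), 0.345 in *Pld6* KO (10 of 29) and 0.25 in *Dnmt3l* KO (2 of 8), where the WT and *Pld6* KO intervals, 0.524 to 0.857 and 0.199 to 0.527, overlapped at their ends. This decrease of 0.375 (0.108 to 0.575) in *Pld6* KO met the size used for calling and had an adjusted p of 0.106 in Fisher's exact test.

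With both sides pooled, no shore was called lower in *Pld6* KO (0 of 10, beside 0.574% of all genes). On the downstream side alone, which was examined after the data were seen, 1 of 9 was called at least 0.3 lower, that of *Tdrkh* (0.753% of all genes), and 1 higher, that of *Pld6* (0.940% of all genes). Fisher's exact test called 1 of the 9 lower there, beside 0.892% of all genes, and 1 higher, beside 3.54%. The lower one was *Mov10l1*, with 0.825 in WT (66 of 80 calls) and 0.608 in *Pld6* KO (79 of 130), a decrease of 0.217 (0.0913 to 0.327; adjusted p = 0.0332 in the exact test), and the higher one was *Pld6*. The shores of *Pld6* itself were higher in *Pld6* KO, over the 29 sites listed in all 3 libraries. Their level was 0.690 in WT (80 of 116), 0.902 in *Pld6* KO (138 of 153) and 0.314 in *Dnmt3l* KO (16 of 51). The difference of -0.212 (-0.309 to -0.116) between WT and *Pld6* KO had an adjusted p of 0.00087 in the exact test, which called 7.48% of all genes higher. It lay on the downstream side, inside the gene, where the level was 0.570 in WT (45 of 79) and 0.875 in *Pld6* KO (98 of 112). On the upstream side the levels were 0.946 (35 of 37) and 0.976 (40 of 41). The missing stretch borders both sides, and its part in this difference was not tested.

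Calls were then pooled over all 10 genes in bins of 250 bp, with *Piwil2* at its methylated upstream start. In the bin that begins at the start, 0.0895 of the calls were methylated in WT, 0.0692 in *Pld6* KO, and 0.00833 for *Dnmt3l* KO. In the bin from 1250 to 1499 bp the levels were 0.787, 0.856 and 0.469, and in the bin from -1500 to -1251 bp they were 0.875, 0.797 and 0.175. WT and *Pld6* KO passed through the middle of this range at like distances, at 0.480 and 0.509 from -1000 to -751 bp and at 0.582 and 0.732 from 1000 to 1249 bp. The gap in this downstream bin rested largely on *Pld6* itself, with 7 of 21 calls methylated in WT and 7 of 9 in *Pld6* KO. *Pld6* also differed from 500 to 749 bp (2 of 14 against 13 of 15) and from 750 to 999 bp (1 of 8 against 18 of 22). From 3.5 to 5 kb upstream the pooled level dropped again in every library, and most of the calls there came from *Tdrd1* (1 of 264 methylated in WT) and *Tdrd9* (7 of 163). Other genes start upstream of 3 members at this distance on the opposite strand, namely *Ccdc186* 4010 bp from *Tdrd1*, *Atp5mpl* 4550 bp from *Tdrd9* and *Mlc1* 4005 bp from *Mov10l1*. At *Mov10l1* the stretch was methylated, with 34 of 41 calls in WT, and the part of neighbouring starts in the drop was not tested.

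**Figure D2:**
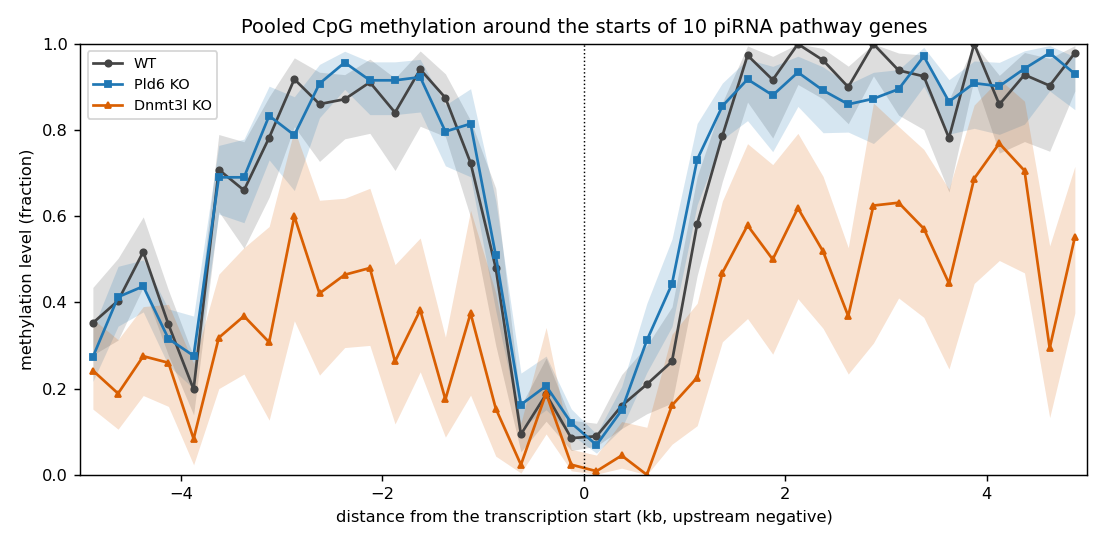
Pooled methylation level (fraction) of the 10 genes in bins of 250 bp against the distance from the transcription start (kb, upstream negative), by library, with 95% Wilson intervals shaded. WT and *Pld6* KO share a trough within 0.5 kb of the start and rise to similar levels on both sides. *Dnmt3l* KO is lower than both in every bin but that from -500 to -251 bp, where it is at 0.189 beside 0.187 in WT. All 7 methylated *Dnmt3l* KO calls of that bin are from *Piwil2* (7 of 11 calls), pooled at its methylated upstream start. In WT *Piwil2* gave 12 of the 20 methylated calls there. The calls of the other trough beyond 3.5 kb upstream are mostly those of *Tdrd1* and *Tdrd9*.

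The reach of the low methylation was measured for each gene as the distance from the start to the first window of 500 bp, moved in steps of 100 bp, with at least 5 calls and a level of at least 0.5. Over the 9 genes without *Pld6*, counting *Piwil2* as 0 bp at its methylated upstream start, the median was 1100 bp upstream and 1000 bp downstream in WT, and 1100 bp on both sides in *Pld6* KO. In *Dnmt3l* KO it was 3600 bp upstream and 3500 bp downstream. These distances depended on the level asked for, since with 0.3 in place of 0.5 the *Dnmt3l* KO medians were 1800 bp upstream and 1200 bp downstream, against 800 bp on each side in WT. At 0.5 the upstream *Dnmt3l* KO median was the value of *Ddx4*, reached after passing over 31 windows with under 5 calls. The downstream one was that of *Mov10l1*, after 16 such windows. This downstream median ranked *Tdrkh*, where no window had 5 calls, among the longest. Of the 18 gene sides, 14 were counted as reaching further in *Dnmt3l* KO than in WT, 4 equally far and 0 less far. The 14 include the downstream side of *Tdrkh*, where all 51 windows in *Dnmt3l* KO had under 5 calls. No reach was measured there. They also include the downstream side of *Asz1*, where 42 windows were passed over and no window at 0.5 was found. In *Pld6* KO 4 sides reached further than in WT, 4 equally far and 10 less far. In each knockout the equal sides included both of *Piwil2*, at 0 bp in every library. The reach was not measured over all genes, so these counts cannot be set beside a share of all genes. *Mael* was at 1100 bp on each side in WT, 1100 and 1300 bp in *Pld6* KO, and 4400 and 4800 bp in *Dnmt3l* KO. These *Dnmt3l* KO distances at *Mael* passed over 24 windows upstream and 28 downstream that had under 5 calls. *Tdrd1* changed least among the CpG-rich starts, summed over both sides, from 1300 and 1200 bp in WT to 2100 and 1200 bp in *Dnmt3l* KO. Fewer windows had 5 calls in the *Dnmt3l* KO library, whose overall level also lies under 0.5. In WT, 31 windows downstream of the *Asz1* start and 12 upstream of the *Tdrkh* start were passed over for having under 5 calls. On each of these sides *Pld6* KO reached less far than WT. The part of depth in the longer *Dnmt3l* KO distances and in the differences between WT and *Pld6* KO was not tested.

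**Figure D3:**
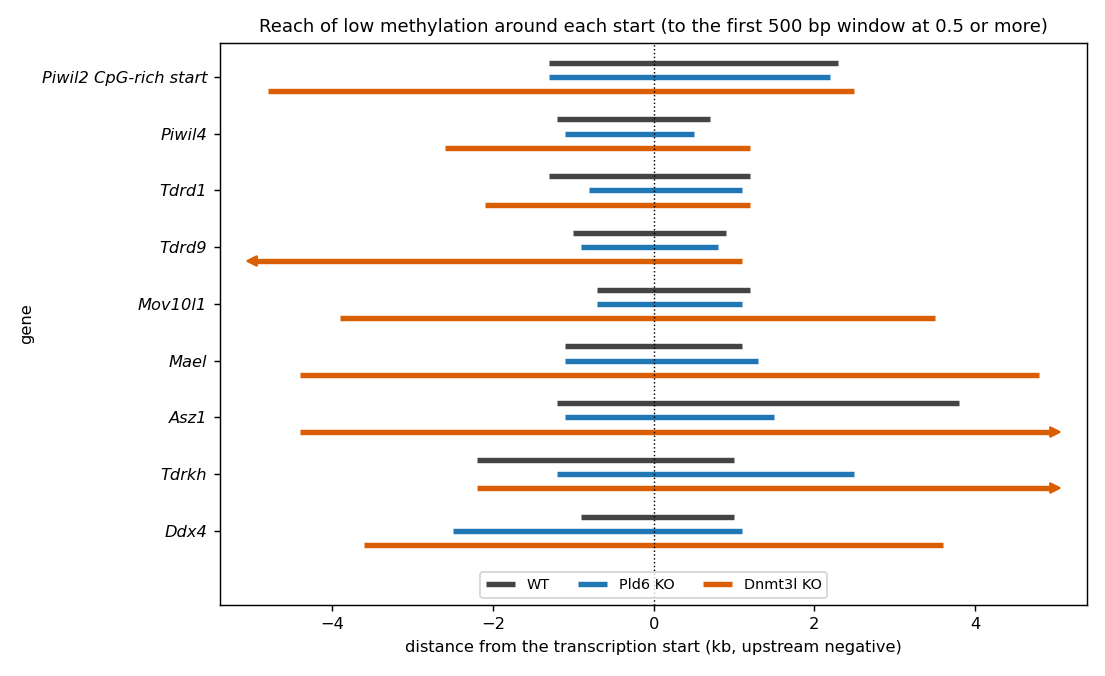
Reach of low methylation on each side of the start (kb, upstream negative) for 9 genes, by library. Bars run from the start to the first 500 bp window at a level of 0.5 or more. Arrows mark sides on which no such window was found within 5 kb, and *Piwil2* is drawn at its CpG-rich start. The downstream *Dnmt3l* KO bar and arrow at *Tdrkh* mark missing calls and not a measured reach, since all 51 windows there had under 5 calls. WT and *Pld6* KO bars are mostly near 1 kb per side, and *Dnmt3l* KO bars are longer in most genes.

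The gene bodies were highly methylated and alike in WT and *Pld6* KO. Their WT levels ran from 0.803 at *Piwil2* (1022 of 1273 calls) to 0.922 at *Piwil4* (984 of 1067), and in *Pld6* KO from 0.837 at *Piwil2* (1447 of 1728) to 0.909 at *Ddx4* (984 of 1083). No body was called lower in *Pld6* KO (0 of 10, against 0.276% of all genes). By Fisher's exact test 0 of 10 differed in either direction, where 5.95% of all genes were lower and 6.89% higher. The differences were bounded closely for the long genes, for instance 0.0182 at *Tdrd9* (0.00394 to 0.0321), the longest with 97367 bp, and -0.00334 at *Tdrd1* (-0.0243 to 0.0166).

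In *Dnmt3l* KO all 10 bodies were lower than in WT by Fisher's exact test (96.8% of all genes) and 9 of 10 by at least 0.3 (82.5% of all genes). The levels that remained differed between genes. *Tdrd1* kept the most, 0.644 (343 of 533 calls; 0.602 to 0.683), and its decrease of 0.257 was the only one under 0.3. *Piwil4* followed at 0.596 (258 of 433) and *Tdrd9* at 0.588 (654 of 1113), then *Mov10l1* and *Mael*, both at 0.553 (342 of 618 and 78 of 141), *Ddx4* at 0.543 (171 of 315) and *Piwil2* at 0.484 (210 of 434). *Tdrkh* at 0.384 (48 of 125), *Asz1* at 0.378 (76 of 201; 0.314 to 0.447) and *Pld6* at 0.357 (5 of 14 calls, from 7 sites) formed the lower end. Intervals of neighbours in this order overlapped, whereas those of *Tdrd1* and *Asz1* were far apart. The median over the 10 bodies was 0.548, beside 0.393 over all genes and 0.431 over protein-coding genes, while in WT the medians were 0.906, 0.869 and 0.878. Along the bodies of the 9 genes without *Pld6*, cut into 4 equal parts, the *Dnmt3l* KO level was 0.547, 0.593, 0.567 and 0.519 from first to last. The WT level over the same parts was 0.863, 0.892, 0.906 and 0.916, so the last part had the highest level in WT and the lowest in *Dnmt3l* KO. The low first part in WT rested on *Piwil2* (168 of 308 calls), whose body holds its CpG-rich start, and without this gene the WT levels were 0.909, 0.898, 0.908 and 0.916, and those of *Dnmt3l* KO 0.573, 0.602, 0.570 and 0.520. Over the 9 genes in *Dnmt3l* KO the intervals of the last part (0.486 to 0.551) and the first (0.515 to 0.579) overlapped, and those of the last and the second (0.561 to 0.624) did not. Taken singly, only *Piwil4* (69 of 132 calls) and *Mov10l1* (49 of 135) had their lowest *Dnmt3l* KO level in the last part. At *Mov10l1* the parts were at 0.588, 0.719, 0.518 and 0.363, so the low pooled last part rested largely on this gene.

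The bodies were also set beside their surroundings, 5 to 25 kb beyond either end of the gene. In WT the body was above its flanks at all 10 genes, with a median difference of 0.30, beside 0.0842 over all genes and 0.111 over protein-coding genes. In *Pld6* KO it was higher at 10 of 10, with a median of 0.260 beside 0.0733, and in *Dnmt3l* KO at 9 of 10, with a median of 0.217 beside 0.0702. The body was higher than its flanks in 71.4%, 72.2% and 67.3% of all genes in the same libraries. The meiotic chromosome genes were alike in this respect, with the body above its flanks at 20 of 20 in WT and 19 of 20 in each knockout, and median differences of 0.213, 0.170 and 0.190. *Ddx4* had a flank level of 0.448 in WT, 0.545 in *Pld6* KO, and 0.210 for *Dnmt3l* KO, against body levels of 0.911, 0.909 and 0.543. *Asz1* had the lowest flanks of the 10 genes, at 0.347, 0.432 and 0.171, and the largest body excess in WT, 0.564. *Tdrd1* and *Tdrd9* had flanks nearly as high as their bodies in WT, at 0.879 and 0.878, and still at 0.592 and 0.442 in *Dnmt3l* KO. The high body level of *Tdrd1* in *Dnmt3l* KO was therefore shared by its surroundings, with a difference of only 0.0517. *Pld6*, whose body held only 14 calls, was the gene with a body below its flanks in *Dnmt3l* KO, 0.357 against 0.486.

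**Figure D4:**
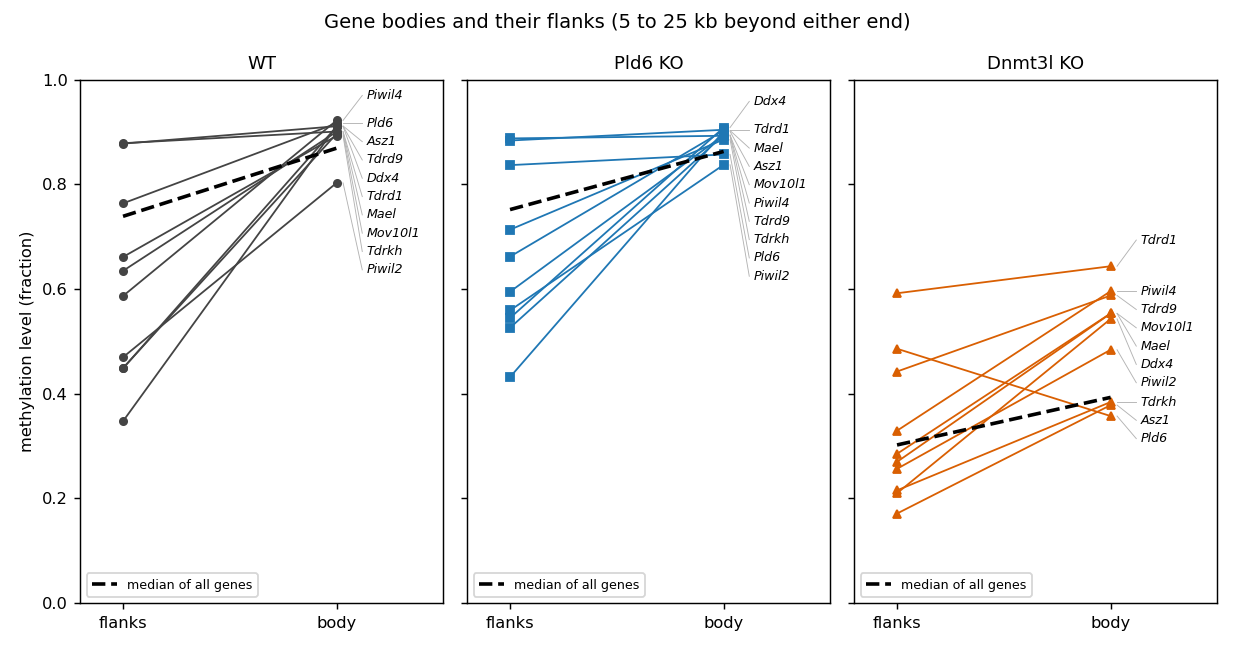
Methylation level (fraction) of the flanks, 5 to 25 kb beyond either end of each gene, and of the gene body, joined by a line per gene, in WT, *Pld6* KO and *Dnmt3l* KO; dashed lines join the medians over all genes. Lines rise at all 10 genes in WT and *Pld6* KO and at 9 of 10 in *Dnmt3l* KO.

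The other 20 listed genes of the pathway gave a similar picture. Their core levels had a median of 0.0574 in WT, 0.0867 in *Pld6* KO, and 0 for *Dnmt3l* KO over the 19 with enough calls, and *Tex15*, a nuclear effector with 1 CpG site in its core, had too few. In WT the highest cores were those of *Nanos2* (0.821 of 28 calls), which encodes an RNA-binding regulator of male germ cells, *Tdrd7* (0.429 of 77 calls) and *Rnf17* (0.129 of 93 calls), both Tudor-domain genes. The lowest were *Mybl1*, the transcription factor of pachytene piRNA loci, *Spocd1*, a nuclear partner of MIWI2, and *Hsp90aa1*, a chaperone, with no methylated call among 114, 58 and 141, which allows up to 0.0326, 0.0621 and 0.0265. Cores were called lower in *Dnmt3l* KO at 2 of 19, *Nanos2* (0.214) and *Tdrd7* (0.118), against 23.3% of all genes. In *Pld6* KO the core of *Tdrd7* was higher, at 0.735 of 68 calls, where 1.08% of all genes were called at least 0.3 higher. Shores were called lower in *Dnmt3l* KO at 12 of 20 (56.8% of all genes), *Piwil1*, *Tdrd5*, *Tdrd6*, *Tdrd7*, *Tdrd12*, *Gtsf1*, *Btbd18*, *Spocd1*, *Tex15*, *Morc1*, *Prmt5* and *Nanos2*. None of the 20 was called lower in *Pld6* KO, beside 0.574% of all genes. The shores of *Fkbp6* were higher in *Pld6* KO, 0.754 of 203 calls against 0.439 of 157 in WT, where 0.364% of all genes were called higher by this size. The bodies of the 19 measured genes had medians of 0.901, 0.878 and 0.50, and 15 of 19 were called lower in *Dnmt3l* KO, against 82.5% of all genes, and 0 in *Pld6* KO, against 0.276%.

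A pair of gene lists for comparison placed these values among other germline genes. The meiotic chromosome genes had core medians of 0.0414, 0.0702 and 0 over 20 measured genes and body medians of 0.906, 0.876 and 0.472, with 18 of 20 bodies called lower in *Dnmt3l* KO (82.5% of all genes). Late spermatogenesis genes had higher core medians, of 0.774 in WT (13 genes), 0.895 in *Pld6* KO (14 genes) and 0.238 in *Dnmt3l* KO (12 genes), and 5 of 12 were called lower in *Dnmt3l* KO (23.3% of all genes). Their WT cores ranged widely, from 0.0286 to 0.957, with a lower quartile of 0.230. The CpG-rich cores of the 8 piRNA pathway genes, at 0.0119 to 0.240 in WT, lay in the range of the meiotic genes (0.00709 to 0.305).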

How the data were processed

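Bisulfite libraries of sorted spermatogonia were made by post-bisulfite adaptor tagging, 1 file per genotype. Per the labels and the study's methods, the authors removed the first 6 and last 15 bases of each read and mapped them with Bismark to mm10, with no removal of duplicates stated. The deposited files list 2 counts per CpG site, of methylated and unmethylated calls. The authors also deposited a fraction per site, which was the share of methylated calls throughout. The study's methods name biological replicates, and whether a deposited file is 1 of them or a pool, and of how many animals, is not given in the sources used here.

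Levels were pooled over sites with 95% Wilson intervals, and differences have Newcombe intervals built from them. Both cover counting error only. At *Pld6*, sites listed in all 3 files were used in core, shores and body, and all sites in its flanks. Fisher's exact tests were two-sided, compared the libraries, treated calls as independent although calls of 1 read are linked, and were adjusted by Benjamini-Hochberg over all genes with at least 10 calls in both libraries (scipy 1.17.1, statsmodels 0.14.6). The test was checked against scipy and on simulated calls. The genes and lists were chosen with earlier results of these data known. The rule for names was all 10 genes, those other pathway genes called in core or shores, and the 3 highest and 3 lowest WT cores. Flanks, body parts, motifs, the downstream shore by itself and the downstream *Piwil2* start were added after seeing the data. Sequences came from RefSeq (GRCm38.p6).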

Additional observations from a re-analysis of the deposited data

How the results depend on the processing

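No paired analysis was possible because each genotype had 1 library. Of 450 member differences recomputed under the alternatives, 436 kept their side of the 0.3 size, 7 passed it and 7 fell short of it, and no called decrease reversed. These changes were at *Piwil2* (5), *Tdrd1* (4), *Piwil4* (2), *Mael* (2) and *Ddx4* (1). Many of the 450 had little room to change side. Most cores had a WT level under 0.3, and no core, pooled shore or body was called lower in *Pld6* KO. The shore decrease in *Dnmt3l* KO was 0.0926 at *Piwil2* from the start with the most CpG sites and 0.112 at *Ddx4* from the annotated gene start, both under 0.3. For the summaries, 168 of 188 values stayed within their limits. In the cores, 2 of 8 genes were called lower in *Dnmt3l* KO with a difference of 0.2 (27.4% of all genes). Fisher's exact test called 2 (21.1% of all genes), and the mean of the site levels 1 (23.0% of all genes). With the core widened to 1 kb each side, the *Pld6* KO median was 0.160. With shores from 0.5 to 2 kb, the medians were 0.568 in WT and 0.647 in *Pld6* KO. With bodies from the start, WT was at 0.809, *Pld6* KO at 0.849 and *Dnmt3l* KO at 0.491. For the reach of low methylation, a level of 0.3 gave 800 bp upstream in WT and *Pld6* KO and 1800 bp in *Dnmt3l* KO, and 800 bp downstream in WT and 1200 bp in *Dnmt3l* KO. The upstream *Dnmt3l* KO reach was 3200 bp from the annotated gene start and 3900 bp from the start with the most CpG sites, and the downstream one was 2700 bp with the mean of the site levels and 4700 bp with sites at least 100 bp apart. Sites at least 100 bp apart gave 1300 bp upstream in WT and 900 bp in *Pld6* KO. In *Dnmt3l* KO no median could be given upstream with such sites, or on either side with sites of at least 3 calls. Most genes had no window there with at least 5 calls and a level of 0.5. Windows with under 5 calls were passed over, so missing calls and low levels are not told apart in these cases. The causes were not tested. The *Dnmt3l* KO library limits the depth, with 7 core calls at *Tdrkh* and 14 body calls at *Pld6*.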
